A study of Mus musculus with 2 samples.

Results

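Cytosolic ribosomal protein genes were followed in mouse embryonic stem cells with and without extra ID2. They were taken by name, as Rplp0, Rplp1, Rplp2, Rpsa or a symbol made of Rpl or Rps, a number and at most a letter a, l or x and a further digit, with a mean deposited value of both libraries of at least 50. Symbols with longer endings, such as Rpl36al, Rps27rt and the pseudogene rows, were not taken. This gave 85 of the 14398 genes in the table, 50 of the large and 35 of the small ribosomal subunit, and 12679 genes in all reached that mean. Of 86 genes with a matching name, the gene just outside the limit was Rpl3l, a muscle-restricted relative of Rpl3, at 54.7 in the control and 40.2 with ID2 (mean 47.5). The genes just inside it were Rpl39l at 191 and 140 (mean 165) and Rpl6l at 448 and 374 (mean 411). Rpl24 was not analysed here. The values that chose these genes are the values described, so the level and the ratio of each gene are given as a description: the genes were selected on their mean deposited value and with their ratios known.

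Both libraries came from 46C mouse embryonic stem cells, a line labelled as derived from the inner cell mass, at passages 21 to 24, kept on gelatin in serum medium with leukemia inhibitory factor. The control library came from cells transfected with an empty PB vector, and the ID2 library from cells transfected with the vector that carries ID2, an inhibitor of basic helix-loop-helix transcription factors. There was 1 library per group, the labels do not say whether either culture was a clone, and no spread between replicates was measured, so no difference could be tested. The value of Id2 was 324 in control cells and 26225 in ID2 cells, 80.8-fold higher. The 10 embryonic stem cell markers looked for, among them Pou5f1, Sox2 and Nanog, all passed the mean of 50, and their summed value was 157110 in control cells and 184620 in ID2 cells. Markers of fibroblasts summed to 2418 and 1698 (7 of 11 listed in the table), of extraembryonic endoderm to 8964 and 9801 (6 of 9) and of neural cells to 1719 and 2349 (3 of 6). Single markers above the mean of 50 went both ways. Of 5 fibroblast markers 2 were higher and 3 lower, of 5 endoderm markers 4 and 1, and of 3 neural markers 2 and 1. Most of the endoderm sum came from Lama1 (5561 and 6130) and Col4a1 (3155 and 3372), named after their values were seen. The part of these markers in the ratios below was not tested.

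A eukaryotic ribosome is built from a small subunit, which holds the messenger RNA and reads its codons, and a large subunit, which joins amino acids and feeds the growing protein through an exit tunnel. Ribosomal protein genes are among the most highly expressed genes of a dividing cell, and their products are assembled on ribosomal RNA in the nucleolus. Their messenger RNAs characteristically begin with a C followed by a run of pyrimidines, the 5′ terminal oligopyrimidine (TOP) tract, through which the growth-regulating kinase mTOR controls their translation.

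The annotated starts of the genes at the ends of the range of ratios are shown because the tract is the hallmark of this family and the genes differ in whether it is found at the annotated start. Each line holds the 15 bases before a RefSeq start and the first 15 bases from it, in GRCm38.p6, 5′ to 3′ on the strand of the gene. Capitals mark a C followed by pyrimidines, at least 5 bases in all, that begins within 5 bases of the annotated start. First come all 8 genes whose log2 ratio of ID2 to control was -0.322 or lower, in order of ratio, then those of the 6 large subunit genes with the highest ratios that have a start in the table. Rps2 and Rpl4 stood at the highest value of both libraries. Both annotated starts of Rps24 are printed.
Rps3, chr7:99483695-99483724, minus strand: cttgcaagggtcgccgcgctgcgcggcgtc
Rps24, chr14:24490663-24490692, plus strand: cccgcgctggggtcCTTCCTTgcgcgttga
Rps24, chr14:24490738-24490767, plus strand: tccggcgccgtagccatcatggtgagtctc
Rplp0, chr5:115559452-115559481, plus strand: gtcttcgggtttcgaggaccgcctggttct
Rpl39l, chr16:10170213-10170242, plus strand: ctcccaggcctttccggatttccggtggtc
Rpl6, chr5:121204486-121204515, plus strand: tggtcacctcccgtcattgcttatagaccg
Rpl5, chr5:107900513-107900542, plus strand: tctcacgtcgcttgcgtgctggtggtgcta
Rpl27a, chr7:109519180-109519209, plus strand: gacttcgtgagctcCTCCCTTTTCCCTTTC
Rpl28, chr7:4792950-4792979, plus strand: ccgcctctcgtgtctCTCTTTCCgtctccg
Rpl7l1, chr17:46782642-46782671, minus strand: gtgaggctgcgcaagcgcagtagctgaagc
Rpl10l, chr12:66284387-66284416, minus strand: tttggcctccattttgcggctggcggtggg
Rpl7a, chr2:26910792-26910821, plus strand: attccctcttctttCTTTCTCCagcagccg
Rpl31, chr1:39367836-39367865, plus strand: cttcctcctcgcCTCCCCgtgacccggaag
Rpl15, chr14:18270972-18271001, minus strand: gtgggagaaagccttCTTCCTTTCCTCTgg
Rps2, chr17:24720048-24720077, plus strand: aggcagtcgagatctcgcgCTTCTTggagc
Rpl4, chr9:64173372-64173401, plus strand: ttccttttcctgtgggagcagccgggtaga

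Of the 85 ribosomal protein genes, 61 had a start in the RefSeq table. A tract beginning exactly at an annotated start was found for 13 of them (21.3%), against 3.01% of the 27025 genes in that table and 3.06% of those with a mean of at least 50. With 5 bases of leeway on either side the count was 29 (47.5%), against 21.2% of all genes in the table and 24.0% of those above the mean. The 29 genes with a tract had a median log2 ratio of ID2 to control of -0.12, and the 32 without one in this window had a median of -0.04. In the ID2 library 19 of the 29 and 19 of the 32 stood lower. Over all 85 genes 63.5% were lower, and over all genes with a mean of at least 50, 51.5%. In the 300 bases around the start, the letters CCGGAAG, the core of ETS family sites, were found on either strand for 26 genes (42.6%), against 9.93% of all genes in the table and 20.5% of those above the mean. The letters AAGATGG, the core of YY1 sites, were found for 10 genes (16.4%), against 7.28% and 8.56%. These are matches of letters, and binding was not measured.

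As a group, the ribosomal protein genes stood slightly lower in the ID2 library, with nearby medians in both subunits. The median log2 ratio, computed after adding 1 to both values, was -0.07 over all 85 genes, -0.0701 over the large subunit and -0.0675 over the small subunit, and the difference between subunits was not tested. Under other settings the small subunit median ran from -0.128 to -0.0374, and that of the large subunit from -0.0841 to -0.0617. Over all 12679 genes with a mean of at least 50 it was -0.0023, and over the 3054 genes with a mean of at least 2000, a level that 80 of the 85 genes reached, it was 0.0029. The middle 90% of the ribosomal protein genes lay between -0.40 and 0.16, against -0.67 to 0.74 for all genes and -0.39 to 0.45 for genes of the higher level. Together they held 8.98% of the summed values of the control library and 8.04% with ID2. Large subunit genes held 4.87% and 4.48%, and small subunit genes 4.11% and 3.56%. Without genes at the highest value of either library the shares were 7.49% and 6.96%. In bulk RNA, fewer cells of a type and less RNA per cell cannot be told apart.

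**Figure D1:**
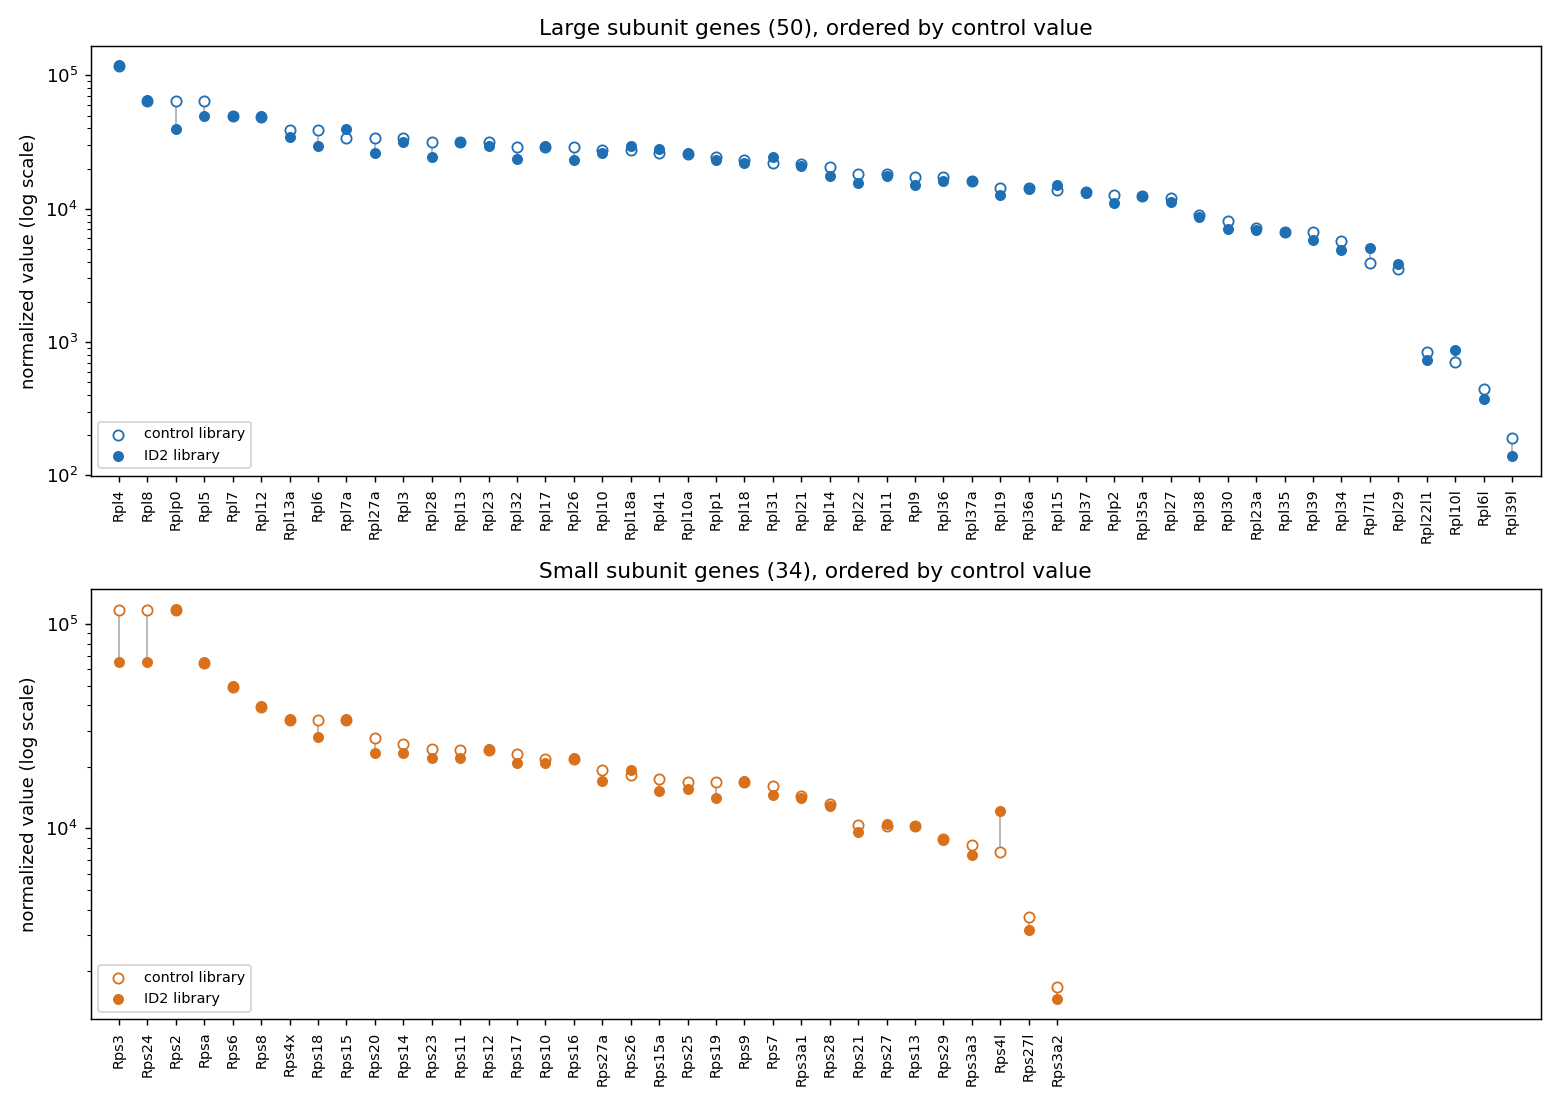
Normalized value of each gene (log scale) in the control library (open circles) and the ID2 library (filled circles), for 50 large subunit genes (top) and 34 small subunit genes (bottom; 1 is not drawn), 1 library per group. Rps3 and Rps24 lie at 117568 in control cells and at 64833 and 64918 in ID2 cells, while most genes lie close together in both.

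Direction was counted on the whole-number steps that underlie the deposited values, because equal step counts differ by 0.01 in log2 ratio through the size factors. Of the 85 genes, 54 were lower in the ID2 library (63.5%), where 51.5% of all genes with a mean of at least 50 were lower. Of the rest, 12 were higher (14.1%), against 47.2% of all genes. Exactly equal values were found for 19 (22.4%), against 1.29% of all genes and 3.31% of those with a mean of at least 2000. Equal values were more common at higher levels, and a comparison among the most abundant genes is given below. In the large subunit 33 genes were lower, 8 higher and 9 equal, and in the small subunit 21 were lower, 4 higher and 10 equal. None of the 85 was 2-fold apart. Of all genes, 2.53% were higher by 2-fold or more and 1.86% lower. Log2 ratios of -0.322 or lower, a ratio of 5 to 4, were found for 8 genes (9.41%), against 16.4% of all genes and 7.73% of those of the higher level. Ratios of 0.322 or higher were found for 2 genes (2.35%), against 18.2% and 10.5%.

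**Figure D2:**
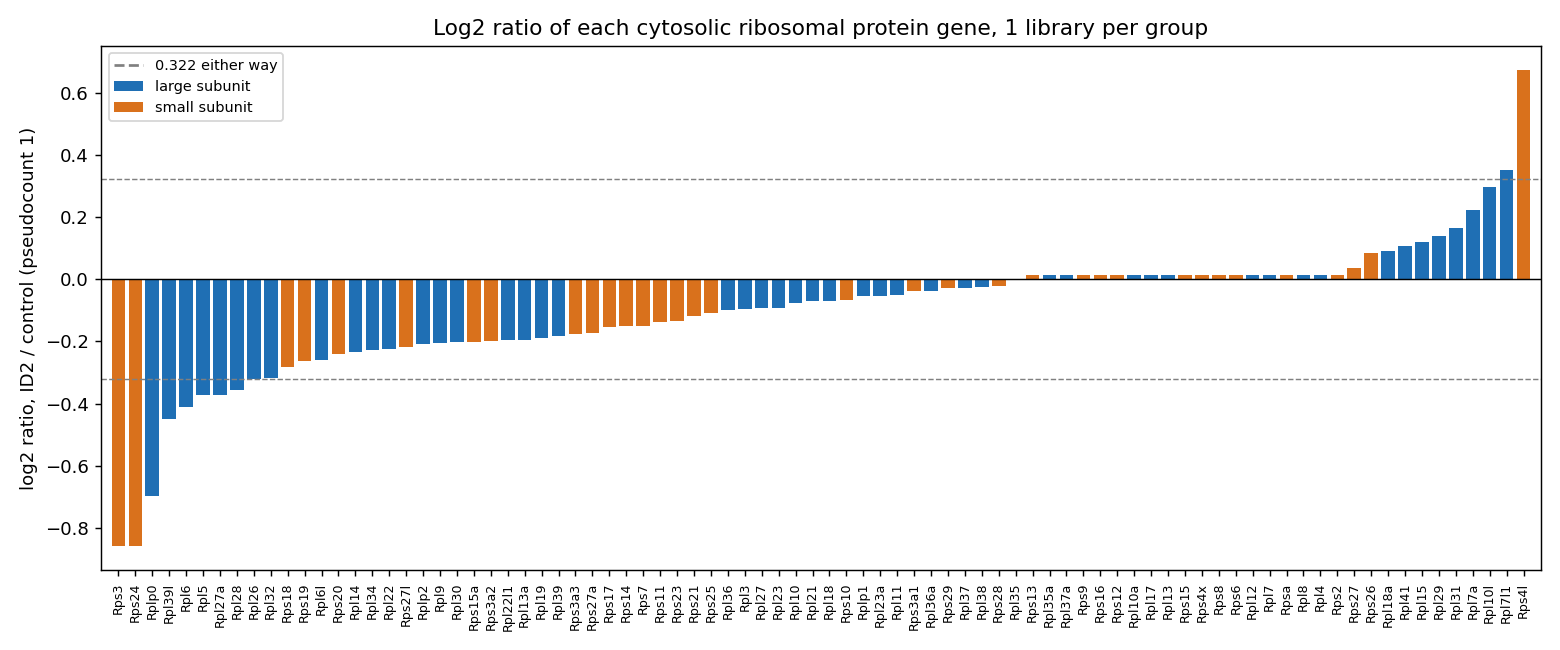
Log2 ratio of ID2 to control for 84 of the 85 genes, ordered from lowest to highest, with large subunit genes in blue and small subunit genes in orange. The dashed lines mark a log2 ratio of 0.322 in either direction, which 8 genes passed downwards and 2 upwards, and the row of short bars of 0.01 holds the 19 genes with equal values.

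The ratios of the most abundant genes moved in fixed amounts, and the deposited numbers show how. Sorted from the highest down, the values of either library ran in blocks of 10 genes that shared nearly 1 value before the next drop, and the first 70 blocks were read. In the control library the first block stood at 117568, the second near 64204, the third near 49074, the fourth near 39232 and the fifth near 33963. The 10 values of a block differed by tiny amounts in a fixed order, and all 626 genes below the first block in both libraries kept their position in that order. The numbers therefore read as 10 sets of genes that were each given the same ladder of values, so that a gene's value in this range is its place in its own set. The tool for this step is not given in the sources used here. Places could be read in both libraries for 638 genes, 75 of them ribosomal protein genes. The drop from the first place to the second was 1.83-fold, or 0.87 on the log2 scale, and later drops were smaller, 1.31-fold from the second to the third and 1.08-fold from the fifth to the next.

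The sets differed in base composition. In all, 9 positions within the blocks could be told apart, 1 of them holding a pair of sets, and numbered by the GC content of their genes' transcripts their medians ran from 43.7% to 57.8%. None of the 125 genes of the lowest group was a ribosomal protein gene. From the second group to the last, the sets held 1, 3, 9, 14, 18, 6, 13 and 9 of them. Rpl4 and Rps2, at the first place in both libraries, have no readable position. The count of 18 was in the set with a median GC content of 53.4%, where Rps3, Rplp0, Rps6 and Rpl27a were ranked against each other. A ratio between libraries therefore compares a gene with others of its set, and a level compared across sets is limited by the common ladder.

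**Figure D3:**
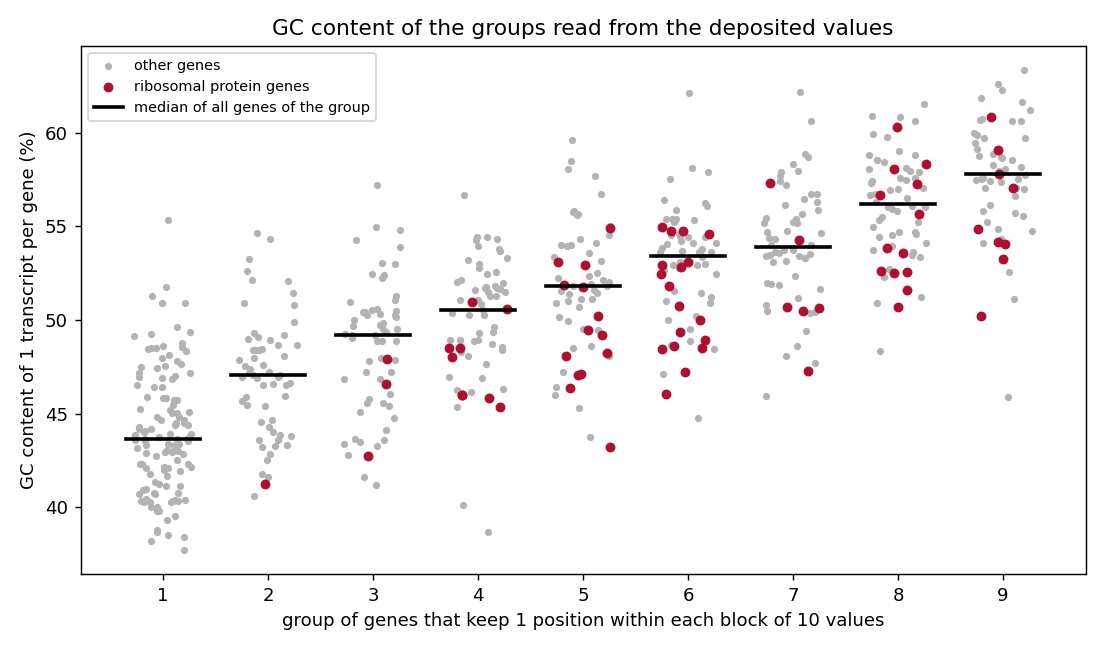
GC content (%) of 1 GENCODE transcript per gene, for the genes that keep 1 position within each block of 10 values, in 9 groups numbered by their median (black bars). Ribosomal protein genes (red) are absent from the lowest group and most numerous, at 18, in the group with a median of 53.4%.

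On this scale of places the ribosomal protein genes stood a little further from the top in the ID2 library. Of the 75 genes, 47 were further from the top (62.7%), against 47.2% of all 638 genes with a place. Nearer the top were 9 (12%), against 40.3%, and at the same place were 19 (25.3%), against 12.5%. The median change was 1 place further for these 75 genes and 0 for the other 563 genes. Over the large subunit 28 of 42 genes were further from the top, and over the small subunit 19 of 33. Among genes that began in the first 10 places, 19 of 36 ribosomal protein genes were further from the top and 3 nearer, while 19 of 64 other genes were further and 23 nearer. The shares at the same place were close there, 14 of the 36 (38.9%) and 22 of the 64 (34.4%). Of the 10 first places, ribosomal protein genes held 4 in control cells and 2 in ID2 cells. They held 36 of the first 100 places and then 30, but 56 and 55 of the first 200. Id2 itself entered at place 9 of the set with a median GC content of 49.2%. That set held 3 of the 75 genes, all further from the top, and in the other sets 44 of 72 were. The 3 were Rpl5 (place 2 to 3), Rpl36a (21 to 22) and Rpl30 (50 to 63), the last 2 named after their values were seen. Rpl5 stood above place 9 in both libraries. Its place 2 was taken by Ipo5, also named after its values were seen, at 49063 in control cells and 64822 in ID2 cells. Whether the entry of Id2 had a part in the other changes was not tested.

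**Figure D4:**
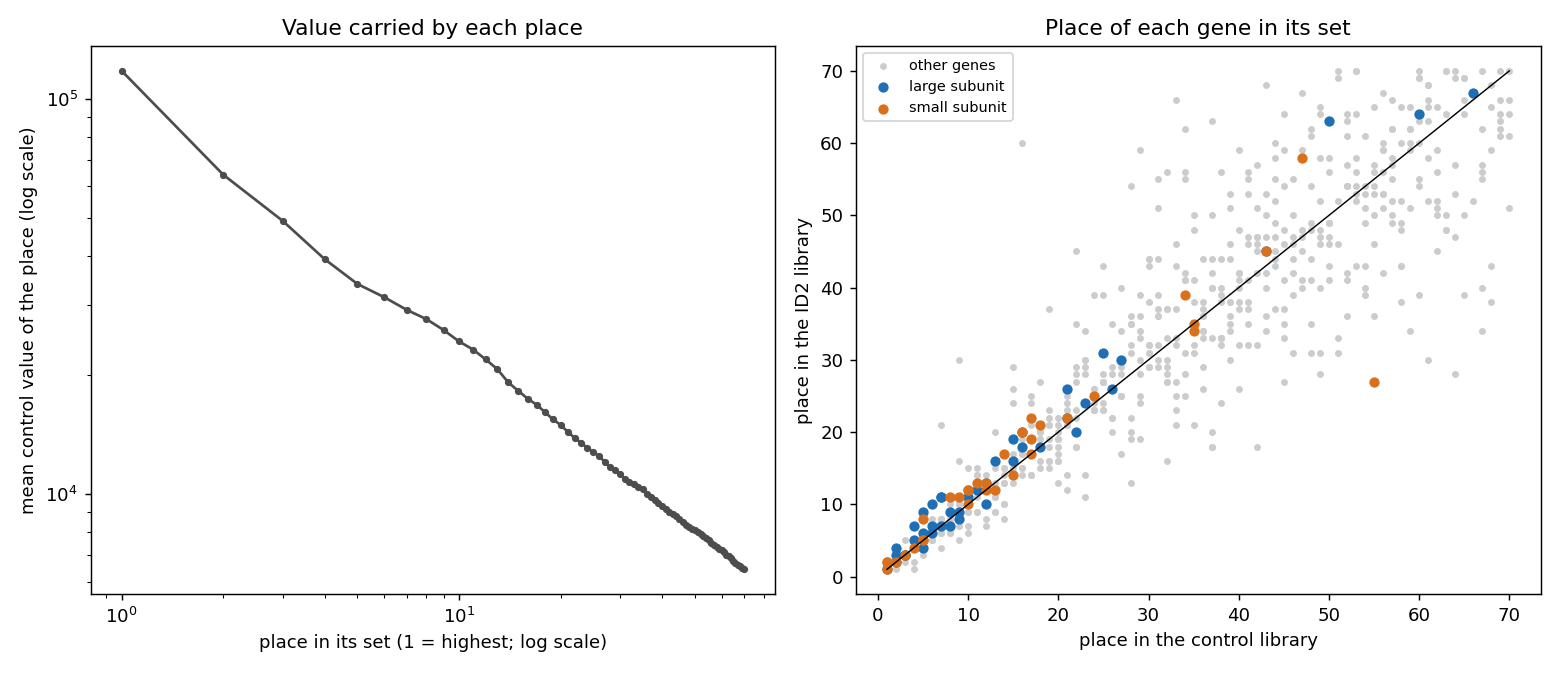
Left, mean control value carried by each place in a set (both axes log scale). Right, place of each of 638 genes in the control and the ID2 library, with large subunit genes in blue, small subunit genes in orange, other genes in grey and a line of equal places; 47 of the 75 ribosomal protein genes lie above the line.

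Rps3 and Rps24, both of the small subunit, had the lowest ratios. Rps3 sits where messenger RNA enters the ribosome and also acts in DNA repair, and its gene lies at chr7:99477896-99483738 (GRCm38, GENCODE M21, minus strand). Rps3 stood at 117568 in control cells and 64833 in ID2 cells, a log2 ratio of -0.86. Rps24, at chr14:24487125-24496959 on the plus strand, is needed for maturation of the small subunit's RNA and is mutated in some patients with Diamond-Blackfan anemia, an inherited failure of red cell production. Rps24 stood at 117568 and 64918, also -0.86. Each of these genes went from the first to the second place of its set, so the size of the ratio is that of the first drop. The place of Rps24 was taken by Atp5b, a subunit of mitochondrial ATP synthase, at 64291 in control cells and 118714 in ID2 cells. The place of Rps3 was taken by Hspa8, a constitutive heat shock chaperone, at 39235 and 118714.

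Rpl4 and Rps2 stood at the highest value of both libraries, 117568 and 118714. Rpl4 lines the exit tunnel and lies at chr9:64173375-64178666 on the plus strand, and Rps2, at chr17:24718116-24721929 on the plus strand, belongs to the messenger RNA entry region. A gene at the first place can lose places but cannot gain any, so a higher level of either in the ID2 library could not appear in these values. The other 6 genes at this value in both libraries were Npm1, Eef1a1, Pabpc1, Gapdh, Fn1 and Hsp90ab1.

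The stalk is the mobile arm of the large subunit that recruits translation factors. Of its 4 genes 3 were lower (75%, against 63.5% of all 85 genes) and 1 was equal, with a median log2 ratio of -0.13. Rplp0, the base of the stalk, at chr5:115559467-115563727 on the plus strand, stood at 64207 in control cells and 39618 in ID2 cells, a log2 ratio of -0.70. It went from place 2 to place 4 in the set it shares with Rps3 and Hspa8. Rplp1 and Rplp2 form the dimers that hang from it. Rplp1 stood at 24297 and 23397 (-0.05), and Rplp2 at 12752 and 11029 (-0.21). Rpl12, at the foot of the stalk, was equal at 49131 and 49610, place 3 in both libraries. The ratios of the 4 stalk genes ran from equal in Rpl12 to the largest difference in Rplp0.

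Rpl5 and Rpl11 bind the 5S ribosomal RNA and, when free of ribosomes, hold back the p53 inhibitor MDM2. Rpl5, at chr5:107900502-107909005 on the plus strand, stood at 64196 and 49542, a log2 ratio of -0.37 and a change from place 2 to place 3. Rpl11 stood at 18151 and 17519 (-0.05), from place 15 to place 16. The ratios of these partners differed in size, while each changed by a single place in its set.

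Around the rim of the exit tunnel, where nascent proteins emerge, 5 of 8 genes were lower, 1 was higher and 2, Rpl4 and Rpl17, were equal (median -0.03). The higher one was Rpl31, at 21892 and 24547 (0.17). At the messenger RNA entry and decoding sites, Rps3 and Rps23 (-0.14) were lower and Rps2 and Rps15 were equal. Of 14 genes in the head of the small subunit, 10 were lower (71.4%), 1 higher and 3 equal (median -0.09). Of 19 genes mutated in Diamond-Blackfan anemia, 14 were lower (73.7%), 4 higher and 1 equal, with a median of -0.07. Over all 85 ribosomal protein genes 63.5% were lower, with a median of -0.07, and over all genes with a mean of at least 50, 51.5% were lower. Differences between these subsets and the whole family were not tested.

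The other large subunit genes with the lowest ratios were Rpl39l at 191 and 140 (-0.45), Rpl6 at 39211 and 29485 (-0.41), Rpl27a at 33965 and 26235 (-0.37) and Rpl28 at 31489 and 24575 (-0.36). Rpl6 went from place 4 to 7, Rpl27a from 5 to 9 and Rpl28 from 6 to 10. In the small subunit the next lowest were Rps18 at 33951 and 27938 (-0.28), Rps19 at 16834 and 14023 (-0.26), Rps20 at 27660 and 23388 (-0.24) and Rps27l at 3676 and 3161 (-0.22). Rps18 went from place 5 to 8, Rps19, the gene most often mutated in Diamond-Blackfan anemia, from 17 to 22, and Rps20 from 8 to 11. The 6 of these genes with a readable place changed by 3 to 5 places each, more than Rps3 and Rps24, whose log2 ratios were further from 0.

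Among the core genes of the large subunit the highest ratios were those of Rpl7a at 33993 and 39662 (0.22, place 5 to 4), Rpl31, Rpl29 at 3521 and 3879 (0.14) and Rpl15 at 13817 and 15028 (0.12, place 22 to 20). In the small subunit, high ratios after that of Rps4l included Rps26 at 18216 and 19326 (0.09) and Rps27 at 10264 and 10521 (0.04). The equal genes were spread over both subunits and included Rpl8 at 64249 and 64875, Rpsa, the laminin receptor, at 64186 and 64812, and Rps6, the substrate of the kinase S6K. Rpl8, Rpsa, Rps6, the pseudogene rows given below and the other genes that share a first place were named after their values were seen.

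Of the names, 9 belong to paralogs or retrocopies, copies of a ribosomal protein gene that arose by duplication or reverse transcription, and 4 of these 9 are annotated as pseudogenes. Of the 9, 6 were lower in the ID2 library (66.7%, against 63.5% of all 85 genes) and 3 higher, with a median log2 ratio of -0.20. The lower ones, from Rpl39l at -0.45 to Rps3a3 at -0.18, also included Rpl6l, Rps27l, Rps3a2 and Rpl22l1. Rps4l had the highest ratio of the family, at 7617 in control cells and 12152 in ID2 cells (0.67, place 55 to 27). GENCODE M21 places it at chr6:148354656-148355598 on the plus strand, as a single exon and a pseudogene. Its relative Rps4x, the X-linked gene, was equal in both libraries. Rpl7l1 stood at 3949 and 5034 (0.35) and Rpl10l, a testis retrogene, at 707 and 867 (0.30). Both genes with a log2 ratio of at least 0.322, Rps4l and Rpl7l1, were among these 9, and none of the 76 core genes reached that ratio. Reads of near-identical copies could have been split between them and cannot be told apart.

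The table also held 71 rows named as ribosomal protein pseudogenes, 46 of them above the mean of 50. Of these 46, 41 were lower in the ID2 library (89.1%) and 5 higher, with a median log2 ratio of -0.16 and a range of -0.69 to 0.26. Over all genes with a mean of at least 50, 51.5% were lower. The most abundant was Rpl3-ps1, at 8758 and 7261 (-0.27). A copy could be lower where its parent gene was equal, as for Rpsa-ps10 at 1810 and 1562 (-0.21) and its parent Rpsa. Rpsa stood at place 2 of its set in both libraries, where the next drop is 1.31-fold. A difference as small as that of the copy could not appear in its value. Of the 33 ribosomal protein genes with such a copy above the mean, 60.6% were lower, and of the 52 without one 65.4%.

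The family shares a compact gene structure that the choice by name did not use. In GENCODE M21 all 85 matched, with a median transcript of 799 bases, against 2858 over the 12383 matched genes with a mean of at least 50. The median coding length was 453 bases against 1422, and the median number of exons 5 against 9. Median GC content was nearly the same, 50.7% against 50.8%. A small nucleolar RNA, a guide for chemical modification of ribosomal RNA, lay inside 30 of the 85 genes (35.3%), against 1.91% of all genes above the mean. The 30 host genes had a median log2 ratio of -0.06, and the 51 other coding members one of -0.07.

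Per kilobase of transcript, the 76 core genes had a median value of 29487 in control cells and 27271 in ID2 cells. The highest in the control library were Rps2 at 107466, Rpl4 at 76442, Rpl8 at 75498, Rps24 at 72888 and Rps15 at 67874, and the lowest Rps15a at 3369. The large subunit median was 29331 and then 24226, and the small subunit median 29751 and then 28950. A different gene sat in the middle in each library, in the large subunit Rpl27a and then Rpl5, so these medians do not follow single genes. The median log2 ratios over all large and all small subunit genes were -0.0701 and -0.0675. With coding length in place of transcript length, 6 of the 10 highest genes remained among the 10 highest. The lowest gene in the control library was then Rpl29 at 7335. Rps15a, whose annotated transcript has 5179 bases for 390 coding bases, then ranked 44 of 76. This order rests on 1 annotated transcript per gene and on the ladder shared by the sets.

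The authors' deposited table gives no ribosomal protein gene an adjusted p below 0.05, where 0.205% of all genes above the mean have one. In the authors' deposited table, 4 of the 85 (4.71%) have an unadjusted p below 0.05, against 4.33% of all genes. They are Rps3 (p = 0.000734, adjusted p = 0.184), Rps24 (p = 0.000754, adjusted p = 0.184), Rplp0 (p = 0.00624, adjusted p = 0.606) and Rps4l (p = 0.0108, adjusted p = 0.778), as the authors' deposited table lists them. Those p-values come from 1 library per group.

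Other genes with TOP messenger RNAs, most of them translation factors, were read beside the ribosomal protein genes. Of 18 such genes 11 were lower (61.1%, against 51.5% of all genes), 7 were equal and none was higher, with a median log2 ratio of -0.07. Eif3h stood at 11218 and 8978 (-0.32), Eif3f at 6335 and 5221 (-0.28), Eef1b2 at 23262 and 19394 (-0.26) and Eif4b at 39223 and 34289 (-0.19). Among the 7 equal genes were Eef1a1, Npm1 and Pabpc1, which stood at the highest value of both libraries and could not be higher. Of 14 regulators of TOP messenger RNAs, 8 were higher and 6 lower (median 0.03), with Akt1s1, an inhibitor of mTOR, at 0.55 and Rps6kb1, the S6 kinase, at 0.33. Among ribosomal protein genes that the naming rule does not reach, Fau stood at 10007 and 9936 (-0.01), Rpl36al at 3591 and 3818 (0.09) and Rps27rt at 617 and 509 (-0.28).

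Among genes that make and assemble ribosomes, more were higher than lower in each of 4 lists. Of 14 genes for ribosomal RNA transcription 10 were higher and 4 lower, with a median log2 ratio of 0.19. Among them Twistnb, a subunit of RNA polymerase I, stood at 572 and 892 (0.64), and Taf1a, of its initiation factor, at 492 and 743 (0.59). Of 24 genes for snoRNA-guided and nucleolar processing 16 were higher, 5 lower and 3 equal (median 0.09). Imp4, of the small subunit processome, stood at 1510 and 2438 (0.69), and Dkc1, the pseudouridine synthase dyskerin, at 9159 and 7695 (-0.25). Of 29 large subunit assembly factors 18 were higher and 11 lower (median 0.07), with Heatr3, which escorts Rpl5 and Rpl11, at 1285 and 1961 (0.61) and Nop2 at 3999 and 5514 (0.46). Of 18 small subunit assembly factors 15 were higher and 3 lower (median 0.13), with Rrp7a at 1519 and 2066 (0.44). Over all genes with a mean of at least 50, 47.2% were higher and 51.5% lower.

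Of 10 genes of the Myc network, which drives transcription of ribosomal genes, 5 were higher and 5 lower (median -0.0046). With a mean of at least 250, which leaves out Myc and Mxd1, the median was -0.17. Myc stood at 80.6 and 350 (2.10) and Mycn at 1428 and 3027 (1.08). Antagonists of Myc in the list went both ways, with Mxd3 at -0.42 and Mxd1, named after its value was seen, at 0.27. Of 9 genes of the p53 response to ribosome stress 6 were lower and 3 higher (median -0.17). Cdkn1a, the cell cycle inhibitor p21, stood at 5806 and 2860 (-1.02), and the apoptosis genes Bbc3 and Pmaip1 were at -0.82 and -0.73. Of the 3 higher genes, Trp53 itself, named after its value was seen, stood at 7197 and 9578 (0.41). Of 13 genes of ribosome quality control and stasis 7 were higher and 6 lower (median 0.07), and Serbp1, which holds idle ribosomes, stood at 64228 and 39640 (-0.70). Of 7 genes that host small nucleolar RNAs without coding for a protein 5 were lower and 2 higher (median -0.29), with Snhg4 at 675 and 857 (0.34) and Snhg8 at 1087 and 877 (-0.31). Over all genes with a mean of at least 50, 51.5% were lower and 47.2% higher. Differences between these lists and the ribosomal protein genes were not tested.

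**Figure D5:**
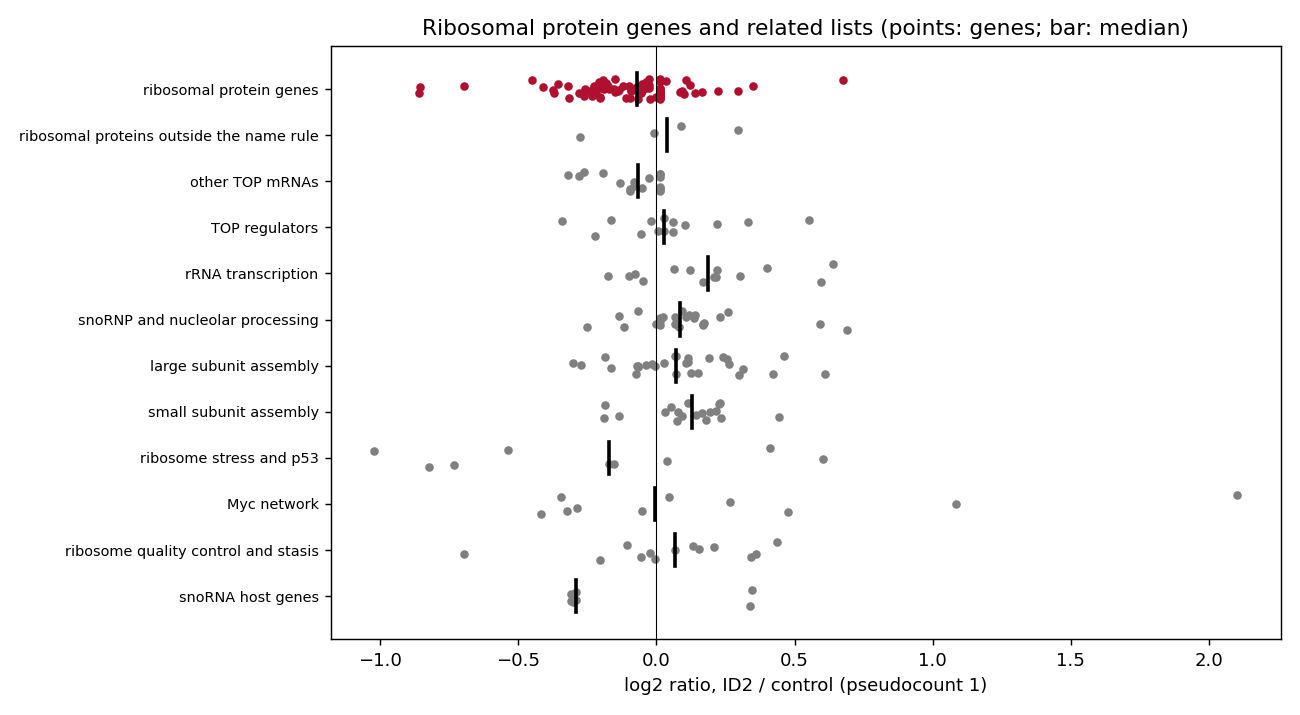
Log2 ratio of ID2 to control of each gene (points) and the median (black bars) for the ribosomal protein genes (red) and 11 related lists (grey), over genes with a mean of at least 50. The medians of ribosomal RNA transcription (0.19) and of the assembly lists lie above 0, and those of the ribosomal protein genes and other TOP messenger RNAs at -0.07.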

How the data were processed

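RNA sequencing of 2 libraries was compared, 1 per group. STAR, DESeq and the build mm9 are listed in the submitters' processing notes. Their versions, the annotation and the read counter were not given in the sources used here. For each gene, the authors deposited 1 normalized signal value per library, their mean, a fold (ratio of ID2 to control), its log2, and p-values with and without adjustment. Every deposited signal value was a whole number of steps, 0.995 for control and 1.00 for ID2, and the sorted whole numbers of both libraries were identical (0 ranks differed). Read depth is therefore unknown, and no counting interval was computed.

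From these values log2((ID2 + 1)/(control + 1)) was computed with Python 3.11.15, numpy 2.4.6 and pandas 2.3.3. Genes with a mean of at least 50 were kept, directions were counted on whole steps, and a 2-fold difference and a log2 ratio of 0.322 were used by size alone. Places were read by cutting the sorted steps into blocks of 10. The calculations were tested on simulated data. Gene models came from GENCODE M21 (GRCm38), with 1 principal transcript per gene, and starts from RefSeq; coordinates are not in the authors' build, and the genes were joined by symbol. The kit does not mark strand, so reads of overlapping genes cannot be told apart by strand.

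The members and all lists were chosen with earlier results of these data known. Named genes were those at the highest value, the 6 highest and 6 lowest ratios of each subunit, role list members and the largest ratios of each related list; others are said to be chosen after their values were seen. Alternatives covered the pseudocount, the floor, scaling, fold thresholds, and the genes left out. Values of some genes covered by these rules are not reported here.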

Additional observations from a re-analysis of the deposited data

How the results depend on the processing

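Of 611 values recomputed under other settings 597 stayed close to the reported ones, and 14 moved. Among the 611 were 425 single-gene ratios, of which 0 moved. The settings run on single genes changed only the pseudocount, the scaling or the source of the log2 ratio. At these values such settings can hardly shift a ratio, so this count says little about how stable single ratios are. In 2 cases a value near 0 changed sign: Rpl35 was at 0.0014 after rescaling, and the median of ribosomal protein genes outside the naming rule, 0.04, was -0.01 at a floor of 250. The median log2 ratio of the ribosomal protein genes lay between -0.0846 and -0.0544 under all settings run, between -0.0841 and -0.0617 for the large subunit and between -0.128 and -0.0374 for the small subunit. The setting rescaled so that the median ratio of all genes, 0.998, became 1 counted direction on the values and not on whole steps. On the values, genes with equal steps differ by 0.01 in log2 ratio, so the 19 equal genes counted as higher by construction. Rpl35 became higher through the rescaling. This gave 32 higher and 0 equal. At fold thresholds of 1.5 and 1.1, 1 gene was higher and 3 were lower past the upper one, and 6 were higher and 33 lower past the lower one. Without paralogs 0 genes had a log2 ratio of at least 0.322, and 1 did among genes with a place in both libraries. Without genes that have a listed pseudogene copy 34 were lower and 9 equal, of fewer genes. The last 2 settings were chosen after seeing the data. With a floor of 250 the Myc network median was -0.17, because Myc and Mxd1 left the list. Coding length kept 6 of the 10 highest genes per length, and leeway of 5 bases gave a tract in 47.5% of ribosomal protein genes and 21.2% of all genes. No paired analysis was possible because each group holds 1 library, and for the same reason no replicate could be left out. Depth is unknown, the common ladder of values limits every ratio near the top, and a difference between these libraries cannot be told apart from a difference between cultures.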
